A study of Mus musculus with 39 samples.

Results

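The comparison set the cells with the most Cd81 RNA against the cells with the least among surviving Lgr5-derivatives of the irradiated mouse intestine. The cells were chosen by their measured Cd81 FPKM (fragments scaled to transcript length and library size), so the difference in Cd81 itself is a description and was not tested. Of 39 cells in the series, 37 entered the quartiles, and 2 cells (numbers 9 and 79) were left out by the rule. The high side held the 9 cells above the upper quartile (562 FPKM), the low side held the 10 cells at or below the lower quartile (248 FPKM), and 18 cells between them were left out of both sides.

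All cells carried the same alleles and had the same treatment, so no untreated group was compared. The mice were Lgr5-EGFP-Ires-CreERT2:Rosa-lsl-tdTomato, in which the Lgr5 promoter drives a tamoxifen-dependent Cre and the Cre turns on tdTomato for good in the cell and its progeny. Tamoxifen was given 24 h before 10 Gy of total body irradiation, and crypt epithelial cells positive for tdTomato and negative for Sca1 were sorted 48 h after it. No label names the animal, its age or a batch for any cell, so the 39 cells counted as 1 biological sample, and differences between cells are given as sizes with the SD over cells and without p-values.

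CD81 is a tetraspanin, a small membrane-spanning protein that gathers integrins, immunoglobulin-type proteins and IFITM proteins into patches of the membrane. It is widely made in epithelia and leukocytes. In the crypt, cycling stem cells at the base give rise to absorptive enterocytes and to secretory cells, among them goblet, Paneth, tuft and enteroendocrine cells. The Cd81 gene (Entrez 12520) lies on chromosome 7 from 143052750 to 143067930 of GRCm38, on the plus strand.

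Cd81 RNA formed a continuous range over the cells and not separate groups. In the high side it ran from 569 FPKM over a median of 665 to 1172, and in the low side from 5.82 over a median of 141 to 248. The medians differed 4.72-fold. The estimated counts behind these values were 2588 to 5459 in the high side and 7 to 1408 in the low side, and the 7 belonged to cell 43, the shallowest of the 37. The limits cut through near neighbours. Cell 48 was the lowest of the high side at 569 FPKM, while cell 52, which set the upper quartile at 562 FPKM, fell outside. At the lower limit, cell 17 fell inside at 248 FPKM and cell 92 outside at 269 FPKM.

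**Figure D1:**
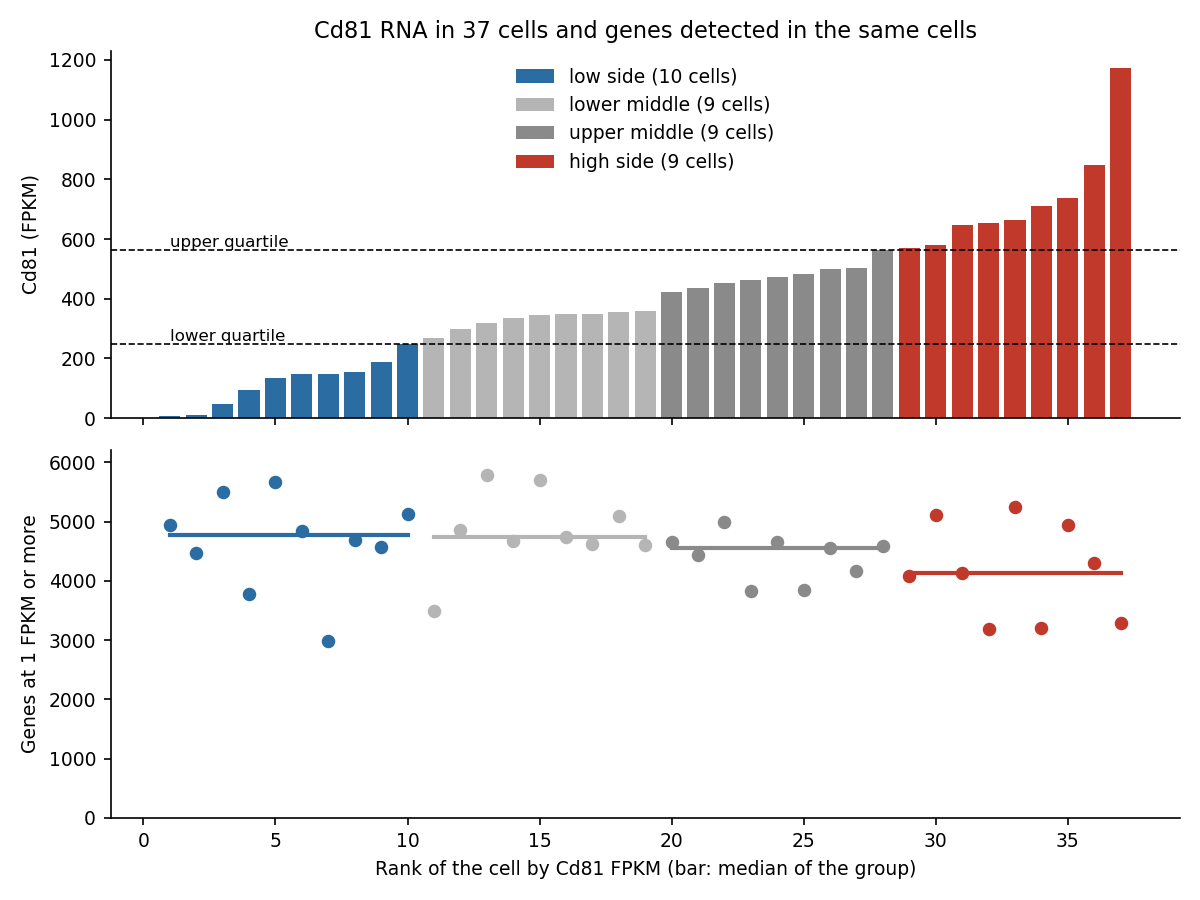
Upper panel, Cd81 FPKM of each of the 37 cells as a bar, in order of Cd81 and with the quartiles as dashed lines. Lower panel, the genes detected (1 FPKM or more) in the same cells, with the median of each Cd81 group as a line. The bars rise without a gap at either quartile, and the median number of genes falls from 4770 in the low side to 4138 in the high side.

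Fewer genes were detected in the high side. Genes at 1 FPKM or above numbered 3191 to 5242 there (median 4138) and 2988 to 5666 in the low side (median 4770), and the ranges overlapped. Depth did not follow the same order, with medians of 3288499 and 3067353 estimated counts on genes and ranges of 1695298 to 3835905 and 661255 to 3666555. With 600000 counts drawn from each cell, the medians were 4603 and 5374 genes with a read. Over the 37 cells the Spearman correlation of Cd81 with genes detected was -0.30, and with depth it was 0.05. Both values are descriptions over single cells of 1 group.

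Across the 9675 genes whose mean over the 37 cells reached 1 FPKM, Cd81 excluded, more genes were lower than higher in the high side. A gene was called when the difference in mean log2(FPKM + 1), high side minus low side, was at least 2 in size. By this limit 106 genes (1.1%) were higher and 329 genes (3.4%) were lower in the high side. The median difference over all genes was -0.16, with 41.6% of genes above 0 and 57.3% below. In 7 pairs of cells, 1 of each side, matched within 10% on the number of genes detected, which leaves fewer cells on each side, 269 genes were called higher and 357 lower, and the median difference was 0. Of the 106 and 329 genes, 73 and 193 were called again in the pairs. The balance turned, to 264 higher and 126 lower, when the quartiles were taken over all 39 cells, which put cells 9 and 79 in the low side. Cells 9 and 79 had 2287 and 2335 genes at 1 FPKM or more, while the lowest of the 37 cells had 2988.

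Single cells varied widely, and no gene compared separated the sides. The median pooled SD over cells was 1.93 on the log2 scale, and the difference was above the gene's own pooled SD for 52 of the 106 genes called higher and for 179 of the 329 called lower. The sides did not overlap for 0 genes (0%). With any 1 cell left out, 34 higher and 151 lower genes stayed called each time. The 18 middle cells gave a view of the same genes in cells that neither side used. There, the mean was lower in the upper middle group than in the lower middle group (9 cells each) for 62.6% of the genes called lower, against 55.4% of all genes, and higher for 48.1% of the genes called higher, against 42.7% of all genes.

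**Figure D2:**
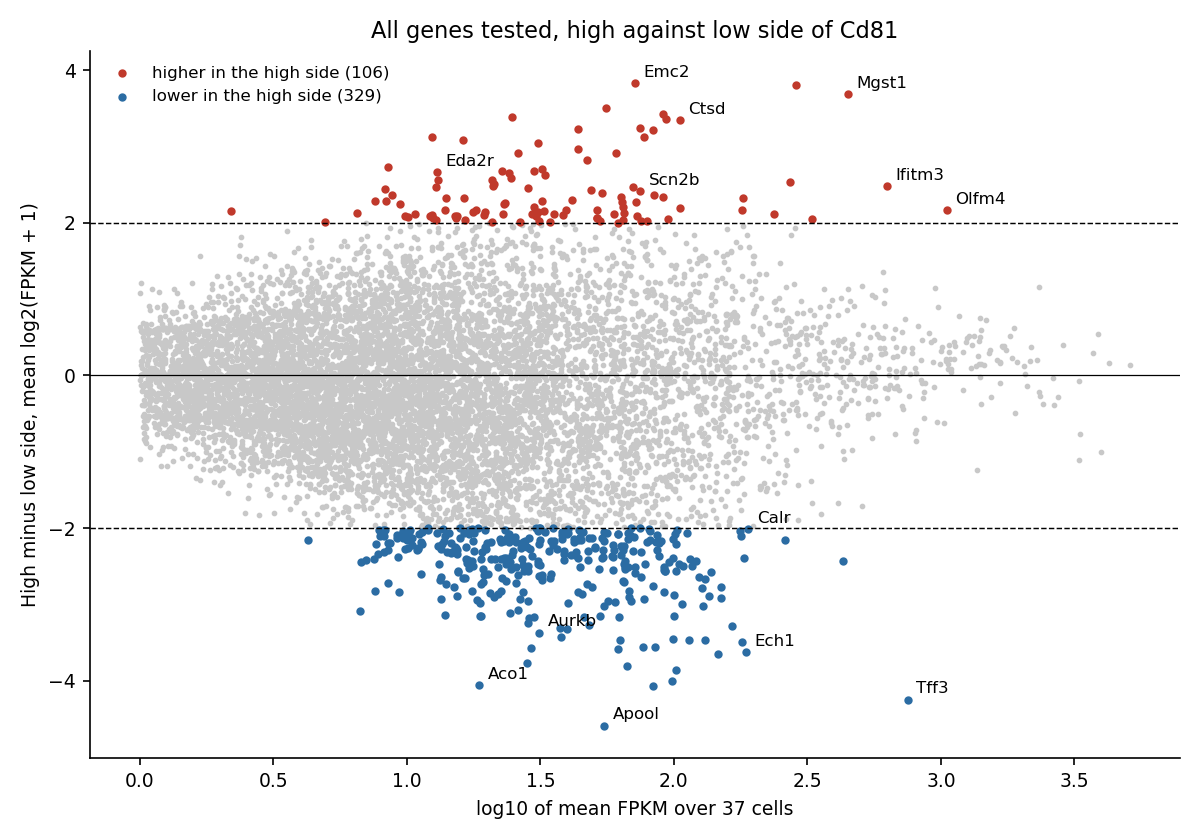
Difference in mean log2(FPKM + 1) between the high and low sides (vertical axis) against the log10 of the mean FPKM over 37 cells (horizontal axis), 1 point for each of 9675 genes, with dashed lines at the call limits of 2 and -2. The 329 genes called lower outnumber the 106 called higher, and most genes of high mean lie near 0.

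The most abundant gene among those with the largest excess in the high side was Mgst1, a microsomal glutathione transferase. Mgst1 ran from 209 over a median of 612 to 1103 FPKM in the high side and from 0 over 136 to 686 FPKM in the low side, a difference of 3.69 with a pooled SD of 2.72. All 9 cells of the high side were above the median of the low side, and 4 were above its highest cell. The 3 low-side cells under 1 FPKM were cells 63, 4 and 96, which also stood out for goblet or tuft genes. Ctsd, the lysosomal protease cathepsin D, was at 9.19 to 350 FPKM in all 9 high-side cells (median 142) and was at 1 FPKM or more in only 5 of 10 low-side cells (median 31.4), a difference of 3.34.

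Emc2, a subunit of the complex that inserts membrane proteins at the endoplasmic reticulum, had the largest difference of the rule, 3.84 (pooled SD 2.54). Its medians were 134 and 1.54 FPKM, and it was detected in 8 of 9 and 6 of 10 cells. Ddrgk1, which takes part in ufmylation at the endoplasmic reticulum, was detected in 8 of 9 and 4 of 10 cells (difference 3.39). Isca2, a factor of mitochondrial iron-sulfur cluster assembly, was detected in 9 of 9 and 7 of 10 cells (difference 3.25), although its highest value, 270 FPKM, was in a low-side cell. The other genes of the set were 2210407C18Rik, Crip2, Pmm1, AK010878, Fastkd2, Cript and Prrg2, with differences from 3.09 to 3.82. This set and that of the largest deficits required detection in at least 2 of every 3 cells of the higher side. Detection counts on that side were therefore partly set by the rule.

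Among the 12 genes of the rule with the largest deficit in the high side, Aco1, the cytosolic aconitase that doubles as an iron regulatory protein, had the smallest spread. Aco1 was at 0 to 6.72 FPKM in the high side, with 2 of 9 cells at 1 FPKM or more, and at 0 to 95.4 FPKM (median 35.6) in the low side, with 9 of 10 cells. The difference was -4.06 with a pooled SD of 1.61, and 8 low-side cells were above every high-side cell. Its median in the middle cells lay between, at 6.75 FPKM in the lower and 1.26 FPKM in the upper middle group. Ech1, an enzyme of fatty acid oxidation, was at 106 to 829 FPKM in all 10 low-side cells (median 309) and at 0.216 to 361 FPKM in the high side (median 48.2), a difference of -3.63. The medians of Ech1 fell in order over the 4 Cd81 groups, at 309, 192, 124 and 48.2 FPKM.

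Apool, a protein of the mitochondrial inner membrane complex that shapes cristae, had the largest difference, -4.59, and was detected in 2 of 9 high-side and 8 of 10 low-side cells. Imp4, Smarcb1 and Slc35a4 were detected in all 10 low-side cells and in 4, 5 and 6 of 9 high-side cells, with differences of -4.07, -4.00 and -3.86. They encode a factor of small ribosomal subunit assembly, a core subunit of the SWI/SNF chromatin remodeler and a member of the nucleotide sugar transporter family. For these 3 genes the middle cells did not lie between the sides in order, since the upper middle median exceeded the lower middle one (for Imp4, 102 against 41.0 FPKM). Cks1b, a partner of cyclin-dependent kinases, had medians of 6.49 and 211 FPKM and a difference of -3.65. Tff3, Tbcb, Ncbp2, Dpysl2 and Exosc9 completed the set, with differences from -4.25 to -3.57.

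Presence on 1 side alone was rare. Serpine2, a secreted inhibitor of serine proteases, was at 1 FPKM or more in 5 of 9 high-side cells (8.23 to 285 FPKM) and in 0 of the other 28 cells. It was the 1 gene of the 9675 found in at least 5 cells of a side and in no cell elsewhere. A share of 0 of 10 low-side cells still allows up to 30.8% of cells (exact binomial, 95%, counting error only). Dpysl2, a cytosolic protein of microtubule regulation, was in 0 of 9 high-side and 7 of 10 low-side cells. Named after their values were seen, Traf3ip2 (8 of 10), Bcl10 (7 of 10) and Paf1 (7 of 10) were the other genes in at least 7 low-side and 0 high-side cells, and 0 genes had the opposite pattern. For 9 cells at 0 the allowed share is up to 33.6%.

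**Figure D3:**
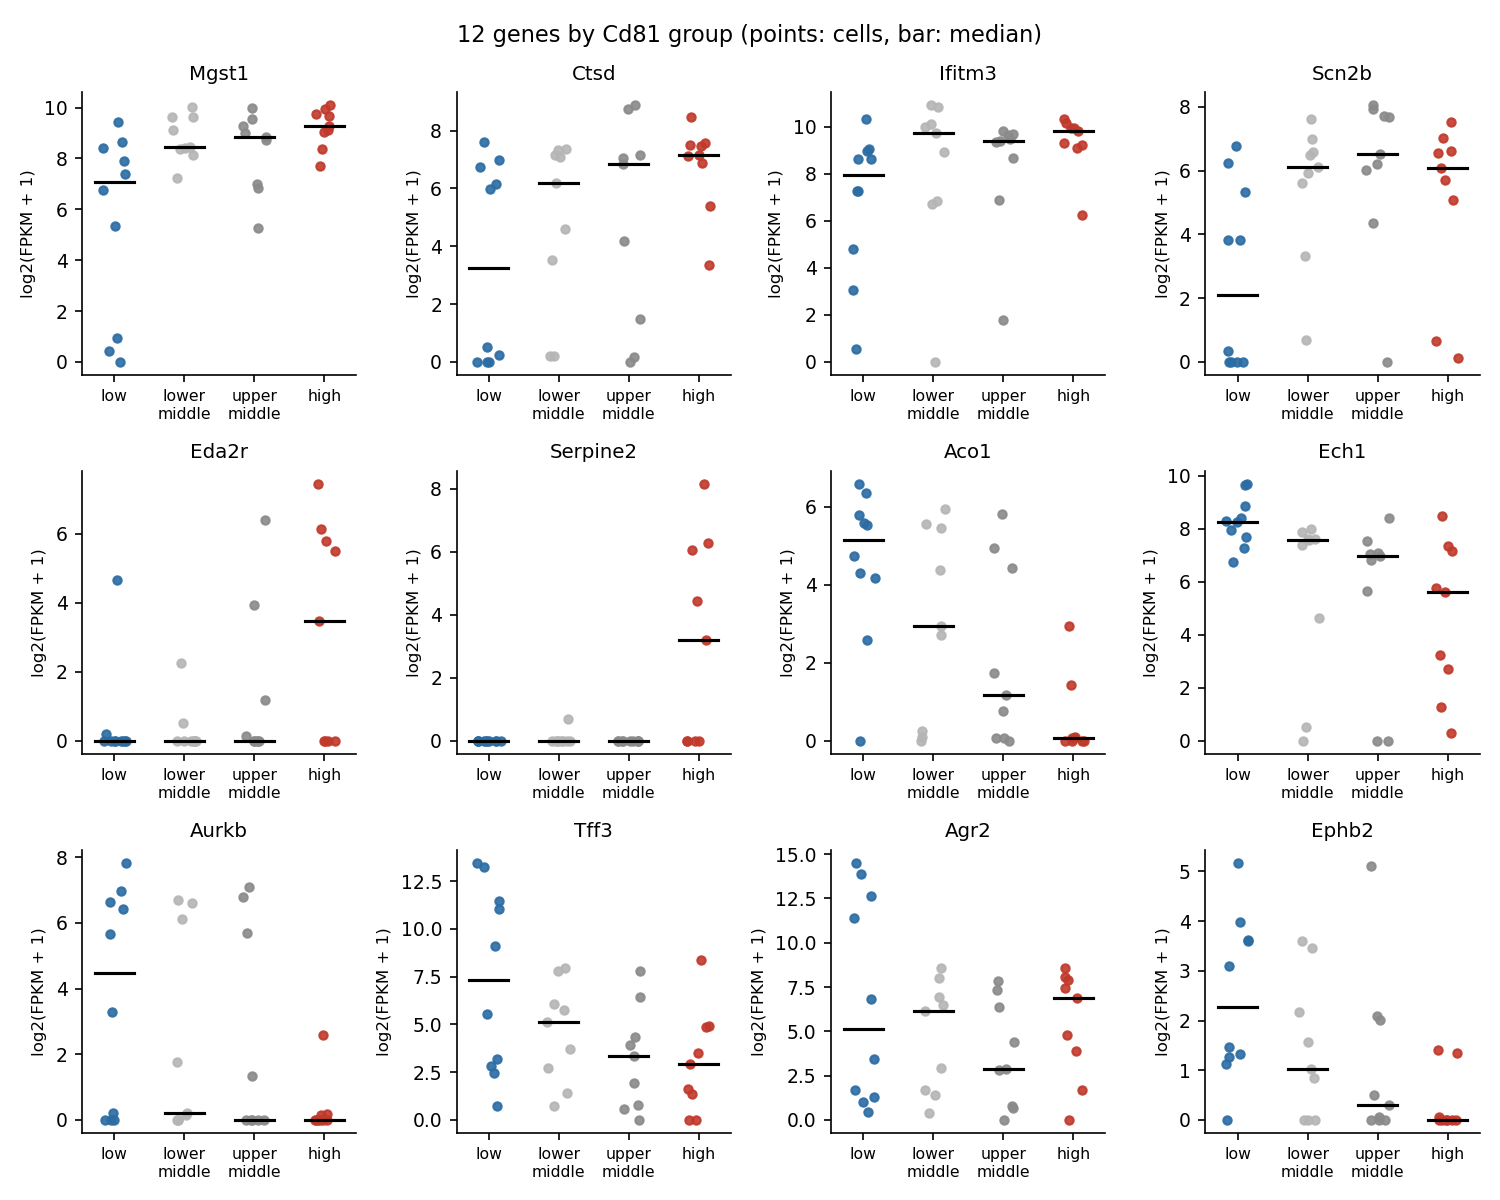
log2(FPKM + 1) of 12 genes in each of the 37 cells, by Cd81 group (10 cells in the low side, 9 in each other group), with the median of each group as a bar. Aco1 and Ech1 decline over the groups, Serpine2 reaches 1 FPKM in the high side alone, and the highest Tff3 and Agr2 cells are all in the low side.

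Over all 37 cells, the genes most like Cd81 by rank were the ribosomal protein genes Rps3a1 (Spearman 0.50), Rpl39 (0.48) and Rps25 (0.47), the tubulin folding cofactor Tbca (0.49) and Serpine2 (0.47). Rps3a1 was at 1068 to 3269 FPKM in the high side (median 2276) and at 796 to 2095 FPKM in the low side (median 1533), with 6 high-side cells above every low-side cell. Tbca had medians of 284 and 95.7 FPKM. The genes most opposed were Eps8l3 (-0.59), Ttc5 (-0.57), Aco1 (-0.55), Ech1 (-0.53) and Tuba1a (-0.53). Eps8l3, of the Eps8 family of actin regulators, fell from a median of 173 FPKM in the low side over 92.9 and 35.7 to 9.12 FPKM in the high side. These are the extremes of 4937 genes whose mean reached 10 FPKM, in cells that also set the sides. In the 18 middle cells alone the values for Tbca and Rpl39 were 0.40 and 0.49, and those for Rps3a1, Aco1 and Tuba1a were 0.11, -0.11 and -0.01. Ribosomal protein and tubulin genes have near-identical copies, so their counts may be shared with other loci.

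The low side held the cells with the most goblet cell RNA. All 11 goblet genes compared, of 16 on the list, had lower means in the high side, with a median of -1.29 against -0.16 over all genes, and 3 were called lower (Tff3, Fcgbp and Spink4, 27.3% against 3.4% of all genes). The level of the list, the mean log2(FPKM + 1) over its genes in a cell, was 0.931 to 3.16 in the high side and 1.23 to 7.66 in the low side. Only 5 of the 37 cells were above 4, and they were cells 63, 4, 5 and 65 of the low side, at 7.66, 6.64, 4.54 and 4.24, and cell 92, the first cell above the lower limit, at 4.40. No cell in the upper 18 by Cd81 exceeded 3.16.

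Agr2, a disulfide isomerase of mucus secretion, was at 23329, 6447, 15335 and 2670 FPKM in these 4 low-side cells and at 0 to 374 FPKM in the high side. Since the remaining low-side cells held 0.388 to 112 FPKM, the medians ran the other way, at 118 FPKM in the high side and 60.9 FPKM in the low side. Tff3, the trefoil factor of goblet cells, was at 9579, 2850, 11289 and 2146 FPKM in the same 4 cells and at 0 to 336 FPKM in the high side, a difference of -4.25 (pooled SD 4.01). Fcgbp, a mucus protein, was at 1 FPKM or more in 7 of 10 low-side cells, up to 260 FPKM in cell 63, and in 1 of 9 high-side cells. Muc2, the main gel-forming mucin, reached 387 FPKM in cell 63, and 6.94 FPKM was its next value in the low side.

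Tuft cell RNA rested on 1 cell of the low side. All 11 tuft genes compared had lower means in the high side (median -0.86), with 0 called. Without cell 96 of the low side the median was 0. Genes carried by 1 low-side cell pass the filter through that cell, so the shared direction was largely fixed beforehand. Cell 96 had a list level of 8.95, against 0.554 to 1.09 in the other 9 low-side cells and 0.0166 to 1.40 in the high side. Its Dclk1, Rgs13, Avil and Alox5ap were at 222, 3217, 1162 and 5443 FPKM, and Dclk1 was under 1 FPKM in every other cell of both sides. Its Cd81 was 148 FPKM. Paneth cell genes went both ways, with 8 higher and 8 lower of 16 and 1 called (Spink4, which the goblet list also holds, 6.25% against 3.4% of all genes), and the median of -0.11 was -0.67 without cell 56 and 0.22 without cell 54. The most Paneth RNA was in high-side cell 56, where Defa24 was at 8338 FPKM, and in low-side cell 63, where Lyz1 was at 1498 FPKM. Defensin genes are near-identical, and their counts may be shared between copies.

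Without the 5 low-side cells whose goblet or tuft level was above every high-side cell (63, 4, 5, 65 and 96), a comparison chosen after the data were seen, the goblet median was -0.40 and the tuft median 0.01. The differences of some other lists were larger in size without these cells. The mitosis, DNA replication and sterol synthesis medians were then -1.33, -1.09 and -1.60, against -0.70, -0.43 and -0.95 with them, and 138 genes were called higher and 787 lower. In that comparison of 9 with 5 cells the sides did not overlap for 13 genes. Without cells 43 and 56, the 2 cells of the sides under 2000000 estimated counts, 152 genes were called higher and 328 lower.

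Enterocyte genes had the highest median of the lists with at least 10 genes, 0.61, with 9 of 14 higher in the high side. Of the 14, 0 were called higher and 1 was called lower (7.14% against 3.4% of all genes). The called gene was Fabp1, the liver-type fatty acid binding protein (median 0.480 against 2.68 FPKM). The highest list level, 5.09, was nevertheless in a low-side cell, and without the 5 cells named above the median was -0.53. Without cell 46 it was 0.25. Of the other 2 marker lists, 1 gene each passed the filter. The hormone gene Sct was at 1 FPKM or more in 2 of 9 and 3 of 10 cells, and Cd68 of macrophages was at 112 FPKM in cell 51 of the low side and at 0 in the other cells of both sides. Epithelial identity held in all 19 cells of the sides, with Lgals4 at 1125 FPKM or more and Krt18 at 55.6 FPKM or more. Of 11 epithelial genes, 10 were lower in the high side (median -0.86) with 0 called. The median was -0.45 in the matched pairs, -0.44 with a split at the Cd81 median and -0.50 with quartiles over 39 cells. Their list level was 4.97 to 7.65 in the high side, lowest in cell 56, and 7.08 to 8.03 in the low side.

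**Figure D4:**
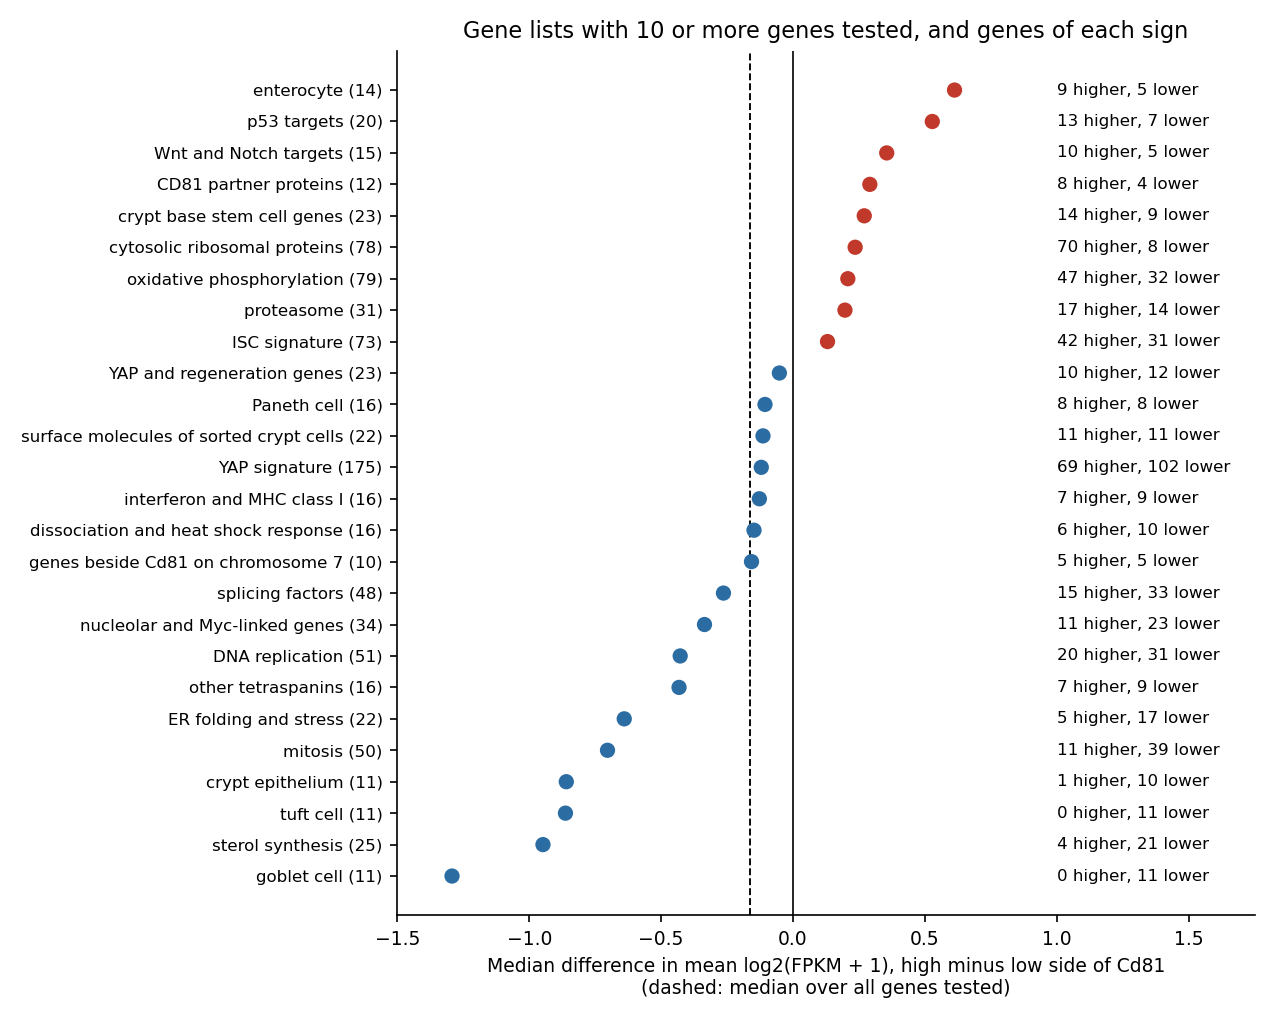
Median difference in mean log2(FPKM + 1), high side minus low side, for each list with at least 10 genes compared, with the number compared in parentheses, the genes of each sign at the right and the median over all genes as a dashed line. Goblet, sterol synthesis, tuft, epithelial and mitosis lists lie farthest below the dashed line, and enterocyte genes and p53 targets lie farthest above it. The tuft median rests on cell 96 and is 0 without that cell.

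Stem cell and replication genes were highest in the middle of the Cd81 range. The list of crypt base stem cell genes had a median of 0.27 between the sides, with 14 of 23 genes higher, 3 called higher (against 1.1% of all genes) and 0 lower. The median was 0.09 without cell 48, 0.46 without cell 60, 0.08 without the 2 cells of lowest Cd81 and 0 as a difference of medians. Over the 4 groups from low to high Cd81, however, the median list level was 2.32, 3.60, 3.63 and 2.98, and 3 of 10, 7 of 9, 6 of 9 and 4 of 9 cells reached a level of 3. The called genes were Ifitm3, Scn2b and Olfm4. Ifitm3, an interferon-inducible membrane protein and stem cell marker, was at 75.2 to 1292 FPKM in the high side (median 901) and at 0.455 to 1305 FPKM in the low side (median 273), a difference of 2.48 (pooled SD 2.41). The medians of the middle groups, 850 and 676 FPKM, were near that of the high side.

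Olfm4, a secreted glycoprotein of crypt base stem cells, had medians of 829 and 168 FPKM and a difference of 2.17 (pooled SD 3.75), while the middle groups were at 1157 and 1098 FPKM. Scn2b, a sodium channel subunit of the stem cell signature, was in 7 of 9 and 5 of 10 cells, with a difference of 2.41. Lgr5, the receptor that marks the stem cells from which the lineage was traced, was at 1 FPKM or more in 1 of 9 high-side and 1 of 10 low-side cells, and its highest value on either side was 2.37 FPKM. Ascl2, Axin2, Smoc2, Aqp4 and Cdca7, all stem cell or Wnt target genes, differed by -0.38 to 0.85, less than their pooled SDs. Mex3a was under the filter, at 1 FPKM or more in 1 cell of each side. Of 15 Wnt and Notch target genes compared, 10 were higher in the high side, with a median of 0.36, 0 called higher and 1 lower (6.67% against 3.4% of all genes). The median was 0.11 without cell 16 and 0.58 without cell 51. The ISC signature of 98 genes, which shares members with this list, gave a median of 0.13 over 73 genes. This median was 0.04 without cell 66, 0.85 over the genes whose mean reached 10 FPKM, and 0 as a difference of medians and without the 5 goblet and tuft cells. Its 3 genes called higher were again Olfm4, Ifitm3 and Scn2b, and 1 gene was called lower (4.11% and 1.37%, against 1.1% and 3.4% of all genes).

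DNA replication genes had a median of -0.43, with 20 of 51 higher and 31 lower, 2 called higher (3.92% against 1.1% of all genes) and 4 lower (7.84% against 3.4%). The median was -0.75 without cell 46, -0.21 without cell 67 and -0.04 between tertiles of Cd81, and with quartiles over 39 cells it was 0.14. The median list level over the groups was 3.56, 4.50, 4.29 and 2.91. Levels under 2 were found in 2 cells of the low side, 1 and 0 of the middle groups and 3 of the high side. Within the list, members went opposite ways. Pcna, the sliding clamp of DNA polymerase and also a p53 target, had medians of 198 FPKM in the high and 80.9 FPKM in the low side (difference 2.12), and Dut, which removes dUTP, 48.4 and 6.50 FPKM (difference 2.21). Slbp, Mcm4, Cdt1 and Pole2, which act in histone mRNA processing and in origin licensing and firing, had differences of -2.76, -2.32, -2.23 and -2.08. For Pcna the middle cells shared the order, with a Spearman correlation with Cd81 of 0.75 over 18 cells.

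Mitosis genes were lower in the high side more often than the average gene. Of 50 genes, 39 were lower and 11 higher, with a median of -0.70, 5 called lower (10.0% against 3.4% of all genes) and 0 called higher. The median was -0.43 without cell 67 and -1.10 without the high-side cell of highest mitosis level, -0.14 between tertiles and -0.22 in the matched pairs. Aurkb, the kinase of the chromosomal passenger complex, was at 1 FPKM or more in 1 of 9 high-side cells (4.98 FPKM at most) and in 6 of 10 low-side cells (up to 226 FPKM), a difference of -3.37. Its partner Cdca8 was in 5 of 9 and 8 of 10 cells (difference -2.56), and the checkpoint gene Bub3 was in 7 of 9 and 10 of 10 (difference -2.67). Cdc20 and Mki67 differed by -2.42 and -2.08. The list level spanned 0.484 to 5.62 in the high side and 0.344 to 5.59 in the low side, and 4 of 9 and 2 of 10 cells were under 2. Cells with high levels of mitosis genes were found on both sides.

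Genes of the p53 response leaned toward the high side, with 13 of 20 higher, a median of 0.53, 1 called higher (5.0% against 1.1% of all genes) and 0 lower. The median was 0.25 without cell 16 and 0.82 without cell 51, and 0.11 with sides taken anew after all cells were scaled to the same FPKM sum. Eda2r, a receptor induced by p53, had a difference of 2.67. It was at 10.2 to 173 FPKM in 5 of 9 high-side cells and at 24.3 FPKM in 1 of 10 low-side cells. Cdkn1a, the cell cycle inhibitor p21, had medians of 160 and 18.6 FPKM and a difference of 1.73 (pooled SD 3.01), below the call limit. Rps27l had medians of 1439 and 620 FPKM (difference 1.14). The highest level of the list, 5.92, was in cell 51 of the low side, above the high-side maximum of 4.54. Of 23 YAP and regeneration genes, Crip2 and Lgals3 were called higher (3.43 and 2.68, 8.70% against 1.1% of all genes) and the median was -0.05, or 0.22 without cell 51. The YAP signature, 416 genes of which 175 were compared, had a median of -0.12 with 4 called higher and 2 lower (2.29% and 1.14%, against 1.1% and 3.4% of all genes). Its median was -0.30 without cell 16 and -0.04 without cell 5. Clu, a marker of revival stem cells, was in 4 of 9 and 1 of 10 cells, and Ly6a, which encodes Sca1, was in 0 of 9 and 2 of 10.

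Sterol synthesis genes were lower in the high side for 21 of 25, with a median of -0.95, 2 called lower (Sc5d and Msmo1, both -2.26, 8.0% against 3.4% of all genes) and 0 called higher. The median was -0.68 without cell 67 and -1.18 without cell 5. It ran from -1.67 to -0.23 over the 15 alternative settings of the closing section. The list level was 0.972 to 2.93 in the high side and 1.34 to 3.79 in the low side. The 3 lower groups had nearly the same median level, 2.66, 2.63 and 2.73, and the high side was at 1.62. Idi1, the most abundant member, did not follow, with medians of 130 and 91.3 FPKM. Genes of folding and stress in the endoplasmic reticulum were lower for 17 of 22 (median -0.64), with Calr and Pdia4 called lower (-2.01 and -2.39, 9.09% against 3.4% of all genes). The median was -0.40 without cell 5 and turned to 0.21 with quartiles over 39 cells. The lectin chaperone calreticulin, the product of Calr, was at 124 to 662 FPKM in the low side and 0.126 to 336 FPKM in the high side.

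Of 20 genes whose proteins work with CD81, 12 were compared, 8 were higher and 4 lower in the high side, the median was 0.29 against -0.16 over all genes, and Ifitm3 was the 1 called (8.33% against 1.1% of all genes). The median was 0.16 without the high-side cell of highest mitosis level, 0.45 without cell 96 and 0.04 as a difference of medians. The mean list level over the groups from low to high Cd81 was 3.67, 3.74, 3.97 and 4.12, with a pooled SD over the cells of the sides of 0.585. Ifitm2, its near copy, had medians of 585 and 483 FPKM (difference 0.36). The integrin genes Itga6 and Itgb1 differed by 0.95 and -1.13. Of 30 other tetraspanin genes, 16 were compared, with a median of -0.43 and 0 called. It was -0.13 without cell 96 and -0.83 without cell 46, and it was 0 as a difference of medians, 0.03 in the matched pairs and 0.18 with quartiles over 39 cells. Tspan8, the most abundant, had medians of 488 and 396 FPKM and a difference of 0.00. Cd9, a close relative of Cd81, differed by 1.20 (pooled SD 2.87) and Cd63 by 0.46. Of 21 genes that lie near Cd81 on chromosome 7, 10 were compared, 5 were higher and 5 lower, 0 were called, and the median was -0.16. It was -0.45 without cell 46 and -0.03 without cell 60, and 0.14 over the genes whose mean reached 10 FPKM.

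Of 22 surface molecules used to sort crypt cells, 11 were higher and 11 lower in the high side, with a median of -0.11. It was 0.09 without cell 56 and -0.30 without the high-side cell of highest mitosis level, 0.29 in the matched pairs and -0.55 over the genes whose mean reached 10 FPKM. Cd74 was called higher (2.47, 4.55% against 1.1% of all genes) and Ephb2 and Cd14 were called lower (9.09% against 3.4%). Ephb2, the receptor that keeps cells in position along the crypt and a Wnt target, was at 1 FPKM or more in 2 of 9 high-side and 9 of 10 low-side cells, with at most 1.66 and 35.1 FPKM and a difference of -2.15 (pooled SD 1.26). Cd44, the Wnt target and hyaluronan receptor, leaned the other way, with medians of 95.8 and 42.2 FPKM (difference 1.78), and 4 high-side cells were above every low-side cell. Cd164 and Cd320 differed by 0.61 and 0.20, Prom1 by -1.98 and Epcam by -0.41.

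**Figure D5:**
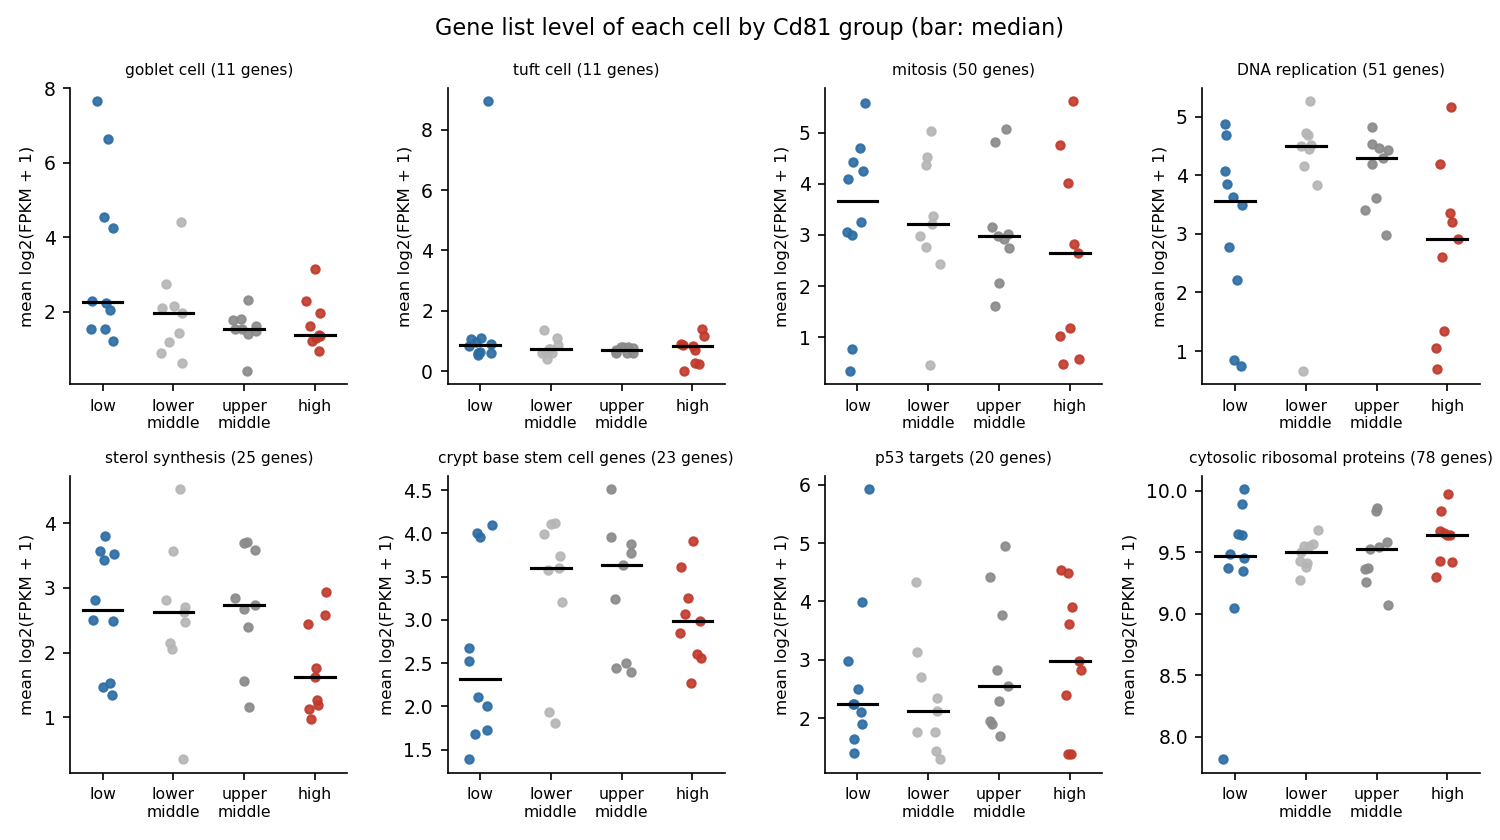
Mean log2(FPKM + 1) over the genes of 8 lists in each of the 37 cells, by Cd81 group, with the median as a bar. Goblet and tuft levels stand out in single low-side cells, stem cell and replication levels are highest in the middle groups (medians 3.60 and 3.63, and 4.50 and 4.29), and sterol synthesis is lowest in the high side.

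Of 78 cytosolic ribosomal protein genes, 70 were higher in the high side, by a median of 0.24 with 0 called, and the list level was 9.29 to 9.97 in the high side and 7.82 to 10.0 in the low side, where cell 96 was lowest. Without cell 96 the median was 0.10. The middle groups did not continue this order, with 40 of 78 higher in the upper one. Oxidative phosphorylation genes (47 of 79 higher, median 0.21) and proteasome genes (17 of 31, median 0.20) had 0 called, and without cell 96 their medians were 0.05 and -0.07. Of 48 splicing factors (median -0.26), 1 was called higher and 3 lower (2.08% and 6.25%, against 1.1% and 3.4% of all genes). Of 34 nucleolar genes (median -0.34), 1 was called higher and 4 lower (2.94% and 11.8%). The splicing median was -0.14 without cell 48 and -0.48 without the high-side cell of highest mitosis level. The nucleolar median was -0.61 without cell 96 and -0.14 without cell 60. With quartiles over 39 cells both turned, to 0.56 and 0.38. Heat shock and dissociation genes had a median of -0.15 with 0 of 16 called, and the median was -0.78 without cell 66 and 0.05 without cell 48. Hspa8, the most abundant, was at 1815 to 7075 FPKM in the low side and 769 to 4403 FPKM in the high side, with 7 low-side cells above every high-side cell. Interferon and MHC class I genes had a median of -0.13, with Ifitm3 the 1 called of 16 (6.25% against 1.1% of all genes). That median was -0.33 without cell 29 and 0.35 without cell 60.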

How the data were processed

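Single cells were captured on a Fluidigm C1 chip, whose sites were inspected by microscope for single cells, then amplified with SMARTer chemistry and made into Nextera XT libraries. No doublet caller was run. The submitters' processing notes name bcl2fastq 1.8.4, TopHat2 2.0.14 and the mm10 (GRCm38) build. For each of 39 cells the authors deposited FPKM and estimated counts over 25219 genes. The FPKM values were compared as deposited, on the scale log2(FPKM + 1), so differences understate the change of low genes. The estimated counts of the authors, which were not normalized, served for depth and, rounded, for thinning to 600000 per cell. These libraries carry no molecular identifiers, and intervals cover counting error only. All value columns were assigned to cells by title.

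Sides were taken from the quartiles of Cd81 over 37 cells. Genes whose mean over these cells reached 1 FPKM were compared, and a gene was called at a difference of at least 2. Cells are not replicates of a condition, so no test was made. A gene was counted as detected at 1 FPKM. The 18 middle cells were split at the Cd81 median (357 FPKM) into a lower and an upper group. Named genes were the 12 with the largest difference in each direction among genes whose mean reached 10 FPKM, with detection in 2 of every 3 cells of the higher side, the 5 most and least correlated with Cd81, the 2 most abundant and up to 3 called genes per list and direction, the genes the study names for this experiment, and a few others marked in the text. Further list members are given as examples. The cells, lists and comparisons were chosen with earlier results of these data known. The ISC and YAP signatures are those listed by the study, from other data. The functions were checked on simulated data. Python 3.11.15, numpy 2.4.6, pandas 2.3.3 and scipy 1.17.1 were used. Alternatives are described in the closing section.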

Additional observations from a re-analysis of the deposited data

Results flagged for a closer look

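Cells 43 and 96 of the low side and cell 66 of the high side were far from the other cells of their side on some measures, by Dixon's criterion on groups of 9 and 10 cells. Chance alone marks about 1 in 20 such groups, and 58 groups were examined. In the low side, cell 43 had the fewest estimated counts, 661255. Cell 96 of the low side stood out 4 times, with a tuft list level of 8.95 and with the lowest levels of nucleolar genes (2.64), cytosolic ribosomal proteins (7.82) and oxidative phosphorylation (6.08). In the high side, cell 66 had the highest level of heat shock and dissociation genes, 5.69. Comparisons without cell 43 and without cell 96, each with other cells, are in the report.

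Cell 9, which the rule left out of the quartiles, had 30.95 FPKM of Cd81 from 56 estimated counts, at a depth of 398418 estimated counts on genes. The cell is in neither side, and only the quartiles over all 39 cells used it.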

How the results depend on the processing

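The numbers of genes called depended on the scale and on where the sides were drawn. Of the 62 called genes chosen by the naming rule, 0 took the opposite sign in any alternative. They were called at a difference of at least 2 in cells that the alternatives mostly reused. A change of sign was therefore unlikely beforehand, and this count is no support for these genes. Counts of higher and lower genes were 416 and 1181 with a pseudocount of 0.1, 856 and 1295 with the log2 ratio of mean FPKM, 353 and 832 with medians, 47 and 194 with tertiles, 11 and 83 with a split at the Cd81 median, and 273 and 715 with thinned counts. At call limits of 1 and 3 they were 842 and 1734, and 15 and 40. Quartiles over all 39 cells bring cells 9 and 79, with fewer genes detected than any of the 37, into the low side. With them the balance turned to 264 higher and 126 lower. The medians of splicing factors, ribosomal proteins and oxidative phosphorylation rose to 0.56, 0.77 and 0.69. Those of ER folding, nucleolar, replication and other tetraspanin genes turned to 0.21, 0.38, 0.14 and 0.18. Matched pairs gave 269 higher genes, and 4 genes without overlap. Leaving out the 5 low-side cells of high goblet or tuft level, chosen after the data were seen, gave 787 lower genes and 13 without overlap. Leaving out 1 cell gave 91 to 143 higher genes, 305 to 455 lower genes and 0 to 1 without overlap. By the log2 ratio of mean FPKM, which follows the highest cells, the goblet, tuft and blood and stromal medians were -4.46, -5.34 and -3.61. The tuft value rests on cell 96, and the blood and stromal value on 1 gene, Cd68, in cell 51. Genes carried by 1 low-side cell pass the filter through it, so the direction of both values was largely fixed. With only genes whose mean reached 10 FPKM, the ISC signature median was 0.85.

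Of 26 lists with at least 10 genes, 8 kept the sign of their median under all 15 alternative settings (goblet, sterol synthesis, mitosis, crypt epithelium, p53 targets, CD81 partners, ribosomal proteins and oxidative phosphorylation). The stem cell list did so under 14 and the DNA replication list under 14, and the YAP and regeneration list under 5. Matched pairs put the median of all genes at 0. Without those 5 cells the medians of enterocyte and proteasome genes turned to -0.53 and -0.17. Depth limits the low values, since cell 43 held 661255 estimated counts and its Cd81 rested on 7. No label ties cells to animals, so there is no error between animals.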

Other observations

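Cells with little replication RNA were found on both sides. In the high side, cells 48, 16 and 67 had DNA replication levels of 1.06, 1.35 and 0.694 and mitosis levels of 1.02, 0.484 and 0.576. Their Lgals3, a galectin of the regeneration list, was at 68.8, 313 and 149 FPKM. Cell 56, with a replication level of 2.91, had 105 FPKM, and the other 5 high-side cells had 0 to 0.267 FPKM of Lgals3. In the low side the 2 cells under a replication level of 2 were cell 96, with the tuft genes and 0 FPKM of Lgals3, and cell 5, with a goblet level of 4.54 and 27.6 FPKM of Lgals3. Among the middle cells it was cell 92, with a goblet level of 4.40 and 0 FPKM. Lgals3 was not limited to cells with little replication RNA, since cells 22 and 34 of the middle groups held 135 and 222 FPKM at replication levels of 3.83 and 4.43. The YAP and regeneration level was 4.74 and 4.03 in cells 16 and 67 and 4.33 in cell 5, but 2.65 in cell 48 and 2.34 in cell 96. Its 2 highest levels, 5.28 in cell 34 and 5.08 in cell 51, came with replication levels of 4.43 and 4.07. The enteroendocrine list, which rests on Sct, was at 5.27 and 3.58 in cells 48 and 67 and 6.76 in cell 96. It was also at 7.91 in cell 63 and 5.04 in cell 4, with replication levels of 2.77 and 3.85, and at 0 in cells 16, 5 and 92. The cells named here were singled out after their values were seen, and the patterns were not tested.

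Cell 51 of the low side combined the highest p53 target level of both sides, 5.92, with Cd68 at 112 FPKM and Eda2r at 24.3 FPKM. Its Cd81 was 135 FPKM.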
